A study of Homo sapiens with 8 samples.

Results

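YAP1 and its paralogue WWTR1 (the gene for TAZ), the DNA-binding partner TEAD1 and 7 genes known as their targets or regulators (CYR61, CTGF, ANKRD1, AMOTL2, AJUBA, LATS2 and AXL) were followed in HepG2 cells, a human line from a liver tumour. These 10 genes were taken by symbol, CYR61 and CTGF under their older names (now CCN1 and CCN2), from the 24462 genes of the count table, and all 10 passed the filter on low counts that left 12577 genes for testing. RNA was sequenced from 4 libraries of the group labelled mock and 4 of the group with EDN1 overexpression (called EDN1 below), and both groups were grown in the same serum-containing medium with no further treatment. The product of EDN1 is cut to endothelin-1, a secreted peptide that acts on G protein-coupled receptors. The labels do not say how EDN1 was introduced, whether the cells are clones or pools, or whether the 4 libraries of each group are separate cultures, so the p-values rest on the spread between libraries, which may be technical. Differences between groups are given as the log2 ratio of EDN1 to mock, the fitted log2 fold change.

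In the Hippo pathway, the kinases MST1 and MST2 activate LATS1 and LATS2, which phosphorylate YAP and TAZ and hold them in the cytoplasm. Unphosphorylated YAP and TAZ enter the nucleus and bind TEAD factors, which recognise the letters GGAATG in DNA and turn on genes such as CTGF and CYR61. In liver the pathway limits organ size, and several of its targets, LATS2 and AMOTL2 among them, feed back to restrain YAP. YAP and TAZ are controlled largely by phosphorylation and location, which counts of RNA do not measure.

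Upstream sequences of the members are shown because TEAD factors are known to act on several of these genes through the letters they recognise. Sequences came from RefSeq (GRCh38.p14), in windows from 250 bases before to 50 bases after the annotated start. Of the 10 members, 8 were matched, and CYR61 and TEAD1 were not. GGAATG, read on both strands (CATTCC on the other), was present in 7 of the 8 windows, all but that of WWTR1, while 14% of the 35116 windows of the same length held it. The members include genes known for TEAD binding, so this share is a description of how they were picked. CTGF, the gene of a secreted matricellular protein, held the letters 3 times, at positions -169, -104 and -95 from the start (first base of the motif, start at 0); 0.128% of all windows held them 3 times or more. ANKRD1, the gene of a nuclear ankyrin repeat protein, held them at -220 and -128. The 250 bases before the start of both genes, on the minus strand, are at chr6:131951373-131951622 for CTGF and chr10:90921088-90921337 for ANKRD1, with the TEAD letters in capitals.
CTGF: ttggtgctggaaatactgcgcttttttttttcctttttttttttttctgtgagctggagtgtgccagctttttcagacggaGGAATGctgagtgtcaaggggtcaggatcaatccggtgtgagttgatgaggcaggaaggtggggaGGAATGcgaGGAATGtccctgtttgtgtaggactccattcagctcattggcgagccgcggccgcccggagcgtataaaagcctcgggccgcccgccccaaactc
ANKRD1: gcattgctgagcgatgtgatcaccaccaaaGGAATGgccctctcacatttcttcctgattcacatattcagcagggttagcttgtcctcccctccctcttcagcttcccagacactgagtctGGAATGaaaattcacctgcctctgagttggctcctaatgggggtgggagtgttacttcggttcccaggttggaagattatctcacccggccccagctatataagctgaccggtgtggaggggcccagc

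The other 5 matched genes held the letters 1 time each. They are given in windows of 30 bases with the motif in capitals, to set its place beside those above. The strand named is that of the gene, along which the letters are read. AMOTL2 and AXL hold CATTCC, so GGAATG lies on the other strand there. The motif begins at -162 in YAP1 (chr11:102110273-102110302, plus strand), -69 in AMOTL2 (chr3:134374499-134374528, minus), -59 in AJUBA (chr14:22976884-22976913, minus), 9 in LATS2 (chr13:21061560-21061589, minus) and -212 in AXL (chr19:41226531-41226560, plus). A match of 6 letters does not show that TEAD binds there.
YAP1: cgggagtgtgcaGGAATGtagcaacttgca
AMOTL2: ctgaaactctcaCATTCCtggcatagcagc
AJUBA: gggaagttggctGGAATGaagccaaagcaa
LATS2: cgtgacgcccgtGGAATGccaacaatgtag
AXL: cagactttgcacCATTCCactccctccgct

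Total counts ran from 8409173 to 14932385 per library. EDN1 averaged 1.45 ± 0.561 CPM (counts scaled to a common library size, the usual CPM) in mock and 363 ± 149 CPM in the EDN1 group (SD, n = 4 each), and every library matched its label. Mock 4, EDN1 3 and EDN1 4 (the second library set) differed from the remaining 5 libraries (called the first library set) in a way no label explains, so values within each set are given for genes whose values depend on it. The sets are not sharply parted: on the leading principal component (40.2% of the variance) mock 2 lay at 2.87, between the other libraries of the first set (-30.2 to -21.4) and those of the second (17.1 to 48.4), and on the next (29.7%) mock 2 (-43.4) and EDN1 3 (45.8) lay farthest apart. Membership of the sets was read from these counts, so a difference between them is described and not tested. All 9 hepatocyte markers were tested, with a summed level of 5870 to 8024 CPM in mock and 5357 to 7545 CPM in EDN1. Of 7 fibroblast markers, THY1 and LUM had 0 counts in every library and the summed level was 0.741 to 2.89 CPM in mock and 0.567 to 3.86 CPM in EDN1, and of 5 endothelial markers, KDR and CLDN5 had 0 counts and the summed level was at most 0.808 CPM. The 5 blood markers summed to 435 to 816 CPM in mock and 389 to 813 CPM in EDN1, nearly all of it LYZ and CD74. The defining marker PTPRC had at most 1 count in a library. CD14 had 4 to 20 counts per library, and HBB had 34 counts in mock 4 and 0 to 3 in each other library.

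The comparison asked whether EDN1 overexpression changed the RNA of the YAP and TEAD genes. None of the 10 passed the quasi-likelihood test of edgeR, adjusted over all genes by Benjamini-Hochberg (adjusted p = 0.9999 for each), where 0.00795% of the genes tested passed. Of the 10, 0 had an unadjusted p under 0.05, against 2.85% of all genes, and in 0 of the 10 did the 4 libraries of one group lie apart from the 4 of the other, against 2.04% of all genes. The count at an unadjusted p under 0.05 depended on EDN1 4: without it 3 of the 10 had one, WWTR1 (0.0199), CYR61 (0.0123) and CTGF (0.0246), all with negative ratios, against 5.76% of the genes then tested (edgeR adjusted p at least 0.803 for each). With the replicate number as a block, CTGF alone of the 10 had one, against 4.37% of all genes. DESeq2 and limma voom also called 0 of the 10. The fold change was negative for 8 of the 10 and for 49.7% of all genes, with a median log2 ratio of -0.26 for the members and 0.00 for all genes. None of the 8 negative values passed the test. In RNA from bulk cells, fewer cells that express a gene and less RNA per cell cannot be told apart. The spread between libraries of the same group was large for some of the 10, CYR61, CTGF and AXL above all. It is described below gene by gene and was not compared between the groups.

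**Figure D1:**
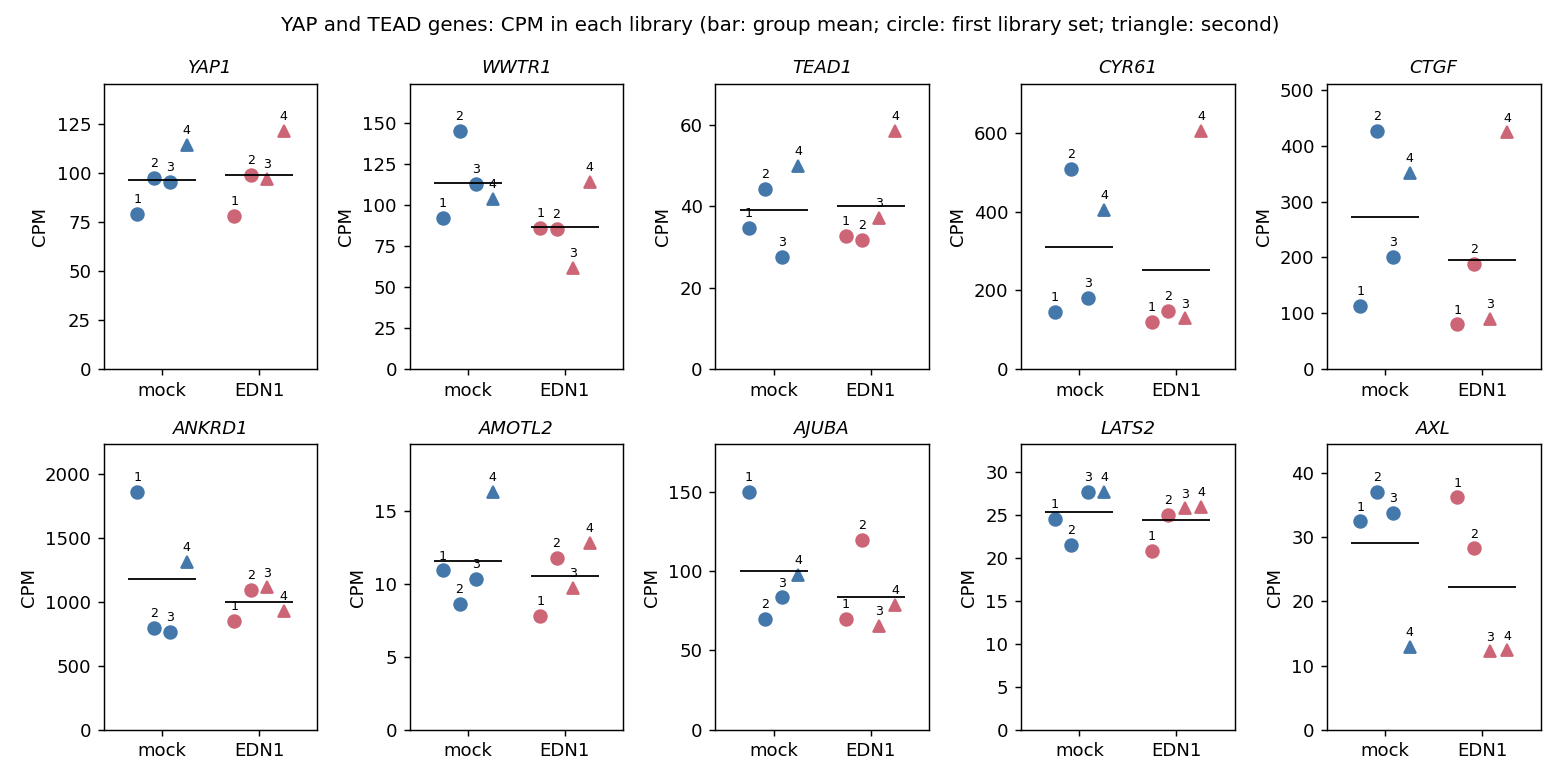
CPM of the 10 genes in each library (vertical axes, linear from 0, one scale per gene), mock in blue and EDN1 in red, with the replicate number above each point, a bar at the group mean, circles for the first library set and triangles for the second. The groups overlap in all 10 panels; CYR61 and CTGF are high in mock 2, mock 4 and EDN1 4, and AXL is low in the 3 triangles.

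YAP1, the coactivator itself, was at 79.1, 97.2, 95.4 and 114 CPM in mock 1 to 4 and at 78.0, 98.9, 96.8 and 121 CPM in EDN1 1 to 4. The groups overlapped over nearly their whole range, with library 1 lowest and library 4 highest in both. The log2 ratio was 0.03 (SE 0.17, 95% interval -0.35 to 0.41), so a change of 2-fold in either direction lay outside the interval.

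WWTR1, whose product TAZ shares the partners and kinases of YAP, was at 92.2, 145, 113 and 104 CPM in mock 1 to 4 and at 85.8, 85.3, 61.7 and 114 CPM in EDN1 1 to 4. EDN1 1, 2 and 3 lay below every mock library, and EDN1 4 lay within the mock range. WWTR1 had the smallest unadjusted p of the 10 (0.0897), with a log2 ratio of -0.39 (SE 0.21, 95% interval -0.84 to 0.07). The value was -0.25 without mock 2 and -0.44 (SE 0.21) within the first library set.

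TEAD1, which carries the DNA-binding domain that YAP and TAZ lack, was at 34.7, 44.2, 27.6 and 49.9 CPM in mock and at 32.8, 31.8, 37.2 and 58.4 CPM in EDN1. Its highest library was number 4 in each group and its lowest was mock 3. The log2 ratio was 0.03 (SE 0.24), and it was -0.21 without EDN1 4 and 0.17 without mock 4. The other TEAD genes gave similarly small values: TEAD2 had a log2 ratio of 0.18 (SE 0.15), TEAD3 of 0.01 (SE 0.17) and TEAD4 of -0.11 (SE 0.16). TEAD3, with a mean of 29.1 CPM in mock and 29.3 CPM in EDN1, had the other sign under 6 of 17 alternatives. VGLL4, a cofactor that competes with YAP for TEAD, had a log2 ratio of 0.01 (SE 0.13), while VGLL1, VGLL2 and VGLL3 did not pass the filter on low counts. Of the 7 tested genes of TEADs, coactivators and cofactors (10 listed, YAP1, WWTR1 and TEAD1 among them), 0 passed the test, 5 had positive and 2 negative fold changes, and the median log2 ratio was 0.01.

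CYR61 encodes a secreted matricellular protein of the same family as CTGF, and both are the targets most often read as a sign of YAP activity. CYR61 was at 144, 510, 181 and 404 CPM in the mock libraries 1 to 4 and at 120, 148, 129 and 606 CPM in the EDN1 libraries 1 to 4. CTGF was at 113, 427, 201 and 353 CPM in mock 1 to 4 and at 79.9, 188, 89.0 and 424 CPM in EDN1 1 to 4. In both genes mock 2, mock 4 and EDN1 4 were the 3 highest libraries. These libraries were neither of 1 group nor of 1 library set, and their total counts included both the lowest (8409173, mock 2) and the highest (14932385, mock 4) of the 8.

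The log2 ratio was -0.31 (SE 0.57, 95% interval -1.57 to 0.96) for CYR61 and -0.49 (SE 0.55, 95% interval -1.69 to 0.72) for CTGF, intervals that do not exclude a 2-fold fall. Both values turned on single libraries. Without EDN1 4 they were -1.23 for CYR61 and -1.20 for CTGF, and without mock 2 they were 0.04 and -0.19. With the replicate number as a block they were -0.48 (SE 0.31) and -0.65 (SE 0.24), with an unadjusted p of 0.0198 for CTGF (edgeR adjusted p = 0.954). Within the first library set they were -1.05 (SE 0.49) and -0.88 (SE 0.54), and within the second, with its lone mock library assumed to vary like the others, -0.15 (SE 0.53) and -0.46 (SE 0.52); whether the sets differ was not tested.

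The spread of these genes between libraries of a group was large beside that of other genes. The SD of log2 CPM within groups was 1.00 for both CYR61 and CTGF, above 99.1% of the 8697 genes with a mean of at least 10 CPM, whose median was 0.28. AXL followed with 0.76, above 97% of those genes. LATS2 lay at the other end with 0.16, above 14.7%, and YAP1 had 0.24, above 38.8%. The spread of the other members was 0.32 for WWTR1, 0.35 for AMOTL2, 0.39 for TEAD1, 0.43 for AJUBA and 0.46 for ANKRD1.

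**Figure D2:**
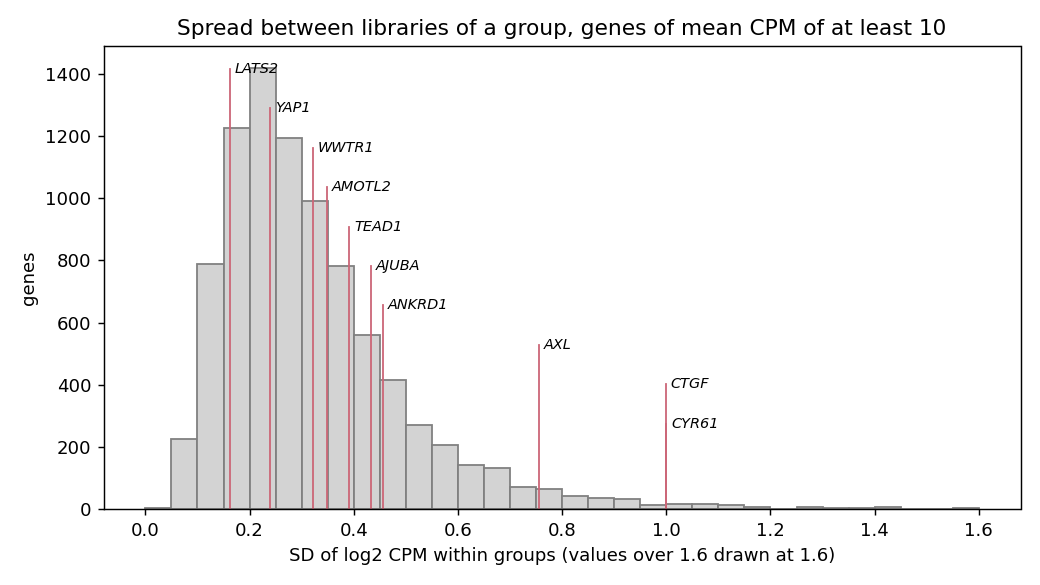
Histogram of the SD of log2 CPM within groups (horizontal axis) over the 8697 genes with a mean of at least 10 CPM (vertical axis, number of genes), with a red line for each of the 10 genes, whose height carries no value. CYR61 and CTGF lie together at 1.00 in the upper tail, AXL at 0.76, and LATS2 at 0.16 below the median of 0.28.

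CYR61 and CTGF also shared their pattern. Likeness was measured as the root mean squared difference of log2 CPM, each gene centred on its own mean, over the 8 libraries. By this measure CTGF (0.31) was the 6th closest gene to CYR61 of the 8696 others with a mean of at least 10 CPM, and CYR61 was the 12th closest to CTGF. The median difference over all those genes was 0.95 for CYR61 and 0.97 for CTGF. The measure does not scale genes to a common spread, so a gene that varied little lay far from both, whatever its pattern. The ranks thus reflect the large spread of both genes as well as their pattern. The 3 genes closest to CYR61 were UTRN, which encodes a dystrophin-related protein (0.19), LDLRAD3 (0.22) and MXI1, which encodes an antagonist of MYC (0.29). The 3 closest to CTGF were SERPINA11 (0.17), MXI1 (0.22) and UTRN (0.25). UTRN was at 39.3, 139, 72.0 and 133 CPM in mock 1 to 4 and at 33.9, 50.2, 44.6 and 165 CPM in EDN1 1 to 4, with the same 3 libraries highest. The next closest member to CYR61 was TEAD1, the 395th closest gene.

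**Figure D3:**
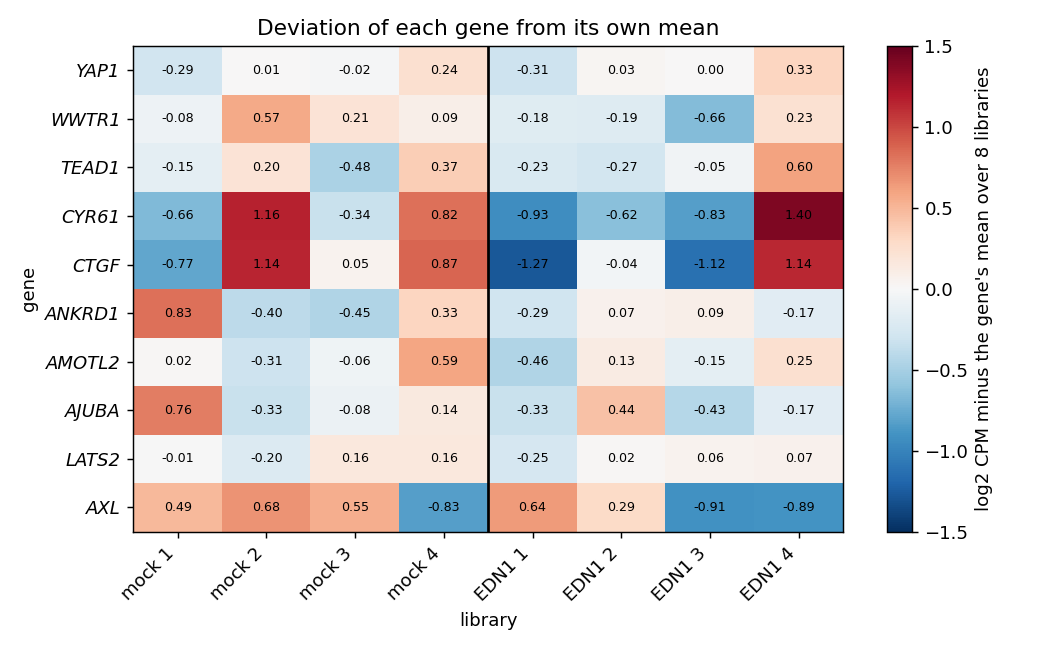
Log2 CPM of the 10 genes (rows) in the 8 libraries (columns, mock left of the line, EDN1 right), each minus the gene's own mean, with the value in each cell. CYR61 and CTGF are both above 0.8 in mock 2, mock 4 and EDN1 4, ANKRD1 and AJUBA are highest in mock 1, and AXL is below -0.8 in mock 4, EDN1 3 and EDN1 4.

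ANKRD1, whose upstream bases with the TEAD letters are given above, was highest in a library that was low for CYR61 and CTGF, and next highest in mock 4, which was high for both. ANKRD1 was at 1863, 795, 763 and 1312 CPM in mock 1 to 4 and at 853, 1098, 1115 and 928 CPM in EDN1 1 to 4. Mock 1, where CTGF was at its lowest within mock, was the highest library for ANKRD1, and all 4 EDN1 libraries lay within the mock range. The log2 ratio was -0.25 (SE 0.28, 95% interval -0.86 to 0.36) and turned to 0.06 without mock 1.

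AJUBA, which encodes a LIM protein that binds LATS kinases and restrains them, was at 150, 70.0, 83.5 and 97.6 CPM in mock and at 70.1, 120, 65.4 and 78.8 CPM in EDN1. Mock 1 was again the highest library, and EDN1 2 the next. AJUBA was the member closest in pattern to ANKRD1 (a difference of 0.27, the 87th closest of the 8696 genes). Its log2 ratio of -0.27 (SE 0.26) was -0.0036 without mock 1.

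AMOTL2, a junctional protein of the angiomotin family that binds YAP, was at 10.9, 8.65, 10.3 and 16.3 CPM in mock and at 7.81, 11.8, 9.73 and 12.8 CPM in EDN1. Mock 4 lay above all other libraries and the rest overlapped, with a log2 ratio of -0.14 (SE 0.24) that was 0.07 without mock 4. LATS2, the kinase that is both a regulator and a target of YAP, was at 24.6, 21.5, 27.7 and 27.7 CPM in mock and at 20.8, 25.1, 25.8 and 26.0 CPM in EDN1. It was the steadiest of the 10, with a log2 ratio of -0.06 (SE 0.15, 95% interval -0.40 to 0.28).

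AXL, a receptor tyrosine kinase gene, followed the library sets. It was at 32.5, 37.1, 33.8 and 12.9 CPM in mock 1 to 4 and at 36.2, 28.2, 12.2 and 12.4 CPM in EDN1 1 to 4. The 5 libraries of the first set lay between 28.2 and 37.1 CPM and the 3 of the second between 12.2 and 12.9 CPM, so that the mean was 2.69 times as high in the first set (33.6 ± 3.49 CPM, n = 5) as in the second (12.5 ± 0.383 CPM, n = 3). The sets did not overlap in 23.2% of all genes, and AXL was the only one of the 10 members among these. The log2 ratio between the groups was -0.38 (SE 0.41) over all libraries, where 1 of 4 mock and 2 of 4 EDN1 libraries belong to the second set. With the library set as a term it was -0.09 (SE 0.13), and the sets alone gave -0.09 (SE 0.19, first) and -0.08 (second, with its lone mock library). The sets were read from these counts, so a smaller SE with the set term was built in for a gene that splits by set. Whether the sets account for the ratio between groups was not tested. With single libraries left out, the log2 ratio was -0.72 without EDN1 1 and -0.17 without EDN1 3.

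**Figure D4:**
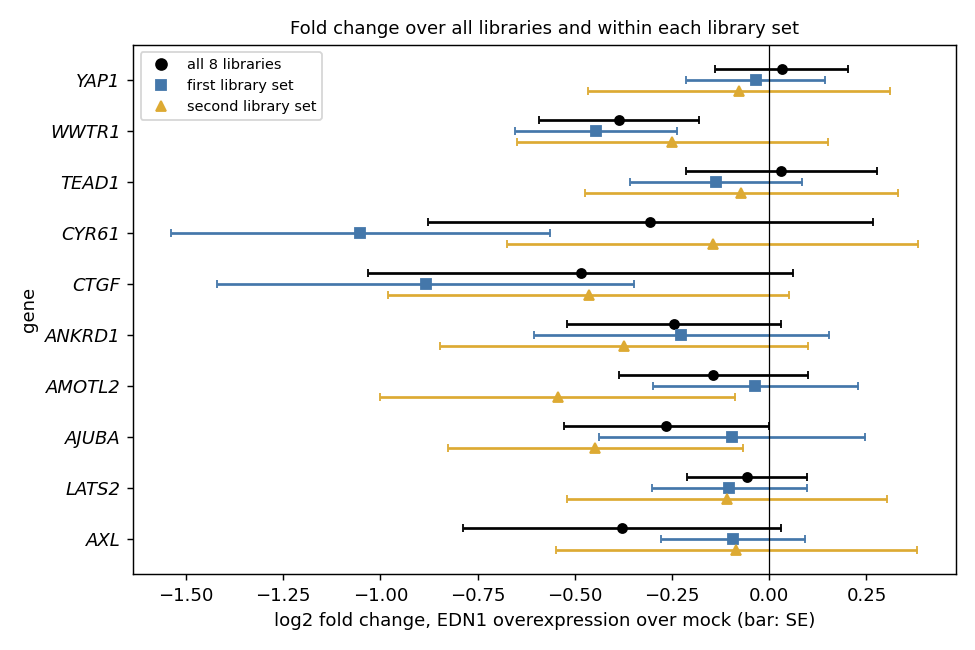
Log2 ratio of EDN1 to mock (horizontal axis, bars are SE) for the 10 genes over all 8 libraries (black circles), in the first library set (blue squares) and in the second (yellow triangles). AXL moves from -0.38 over all libraries to -0.09 and -0.08 within the sets, while CYR61 lies at -1.05 in the first set and -0.15 in the second.

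The rest of the pathway was read from 4 lists of known components. Of the 13 tested genes of the Hippo kinase core and its activators (14 listed, FRMD6 not passing the filter), 0 passed the test in either direction, 5 had positive and 8 negative fold changes, and the median log2 ratio was -0.05. All 13 intervals lay within 2-fold in either direction, as did 79.4% of those of all genes. The log2 ratio was -0.13 (SE 0.21) for STK3 and -0.06 (SE 0.17) for STK4, the genes of MST2 and MST1. It was 0.26 (SE 0.30) for their scaffold SAV1 and -0.11 (SE 0.16) for LATS1. MOB1B, a LATS coactivator, had the smallest unadjusted p of the list (0.09, edgeR adjusted p = 0.9999). Its level was 33.6 ± 2.25 CPM in mock against 27.8 ± 3.75 CPM in EDN1 (SD, n = 4), a log2 ratio of -0.28 (SE 0.15), against -0.07 (SE 0.21) for its paralogue MOB1A. NF2, the gene of merlin, ran from 12.6 to 20.2 CPM in mock and from 7.51 to 28.8 CPM in EDN1, with a log2 ratio of 0.14 (SE 0.34) that was 0.39 without EDN1 4 and -0.17 without EDN1 1. The kinase genes TAOK2 and TAOK3 were at 0.23 (SE 0.16) and 0.17 (SE 0.16) on the same scale.

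Of the 14 genes of YAP binding and junctional regulators, 0 passed the test, 8 had positive and 6 negative fold changes, and the median was 0.08. AMOT, the founding angiomotin, had 1.52 ± 0.404 CPM in mock and 2.91 ± 0.677 CPM in EDN1 (SD, n = 4). Its log2 ratio was 0.92 (SE 0.30, 95% interval 0.25 to 1.58) with an unadjusted p of 0.0115 (edgeR adjusted p = 0.9999). EDN1 2, at 2.04 CPM, lay within the mock range, which reached 2.11 CPM. AMOT rested on low counts, 10 to 27 per library in mock and 18 to 36 in EDN1. AMOTL1 of the same family had a log2 ratio of 0.60 (SE 0.35) at a mock level of 1.09 CPM; leaving out EDN1 3 gave 0.41 and the first set alone 0.15, while AMOTL2, as given above, had -0.14. WTIP, a LIM protein of the AJUBA family, was at -0.32 (SE 0.21), with -0.19 when EDN1 4 was left out and -0.52 when EDN1 2 was. The phosphatase gene PTPN14, which is also a target, was at 0.09 (SE 0.15).

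**Figure D5:**
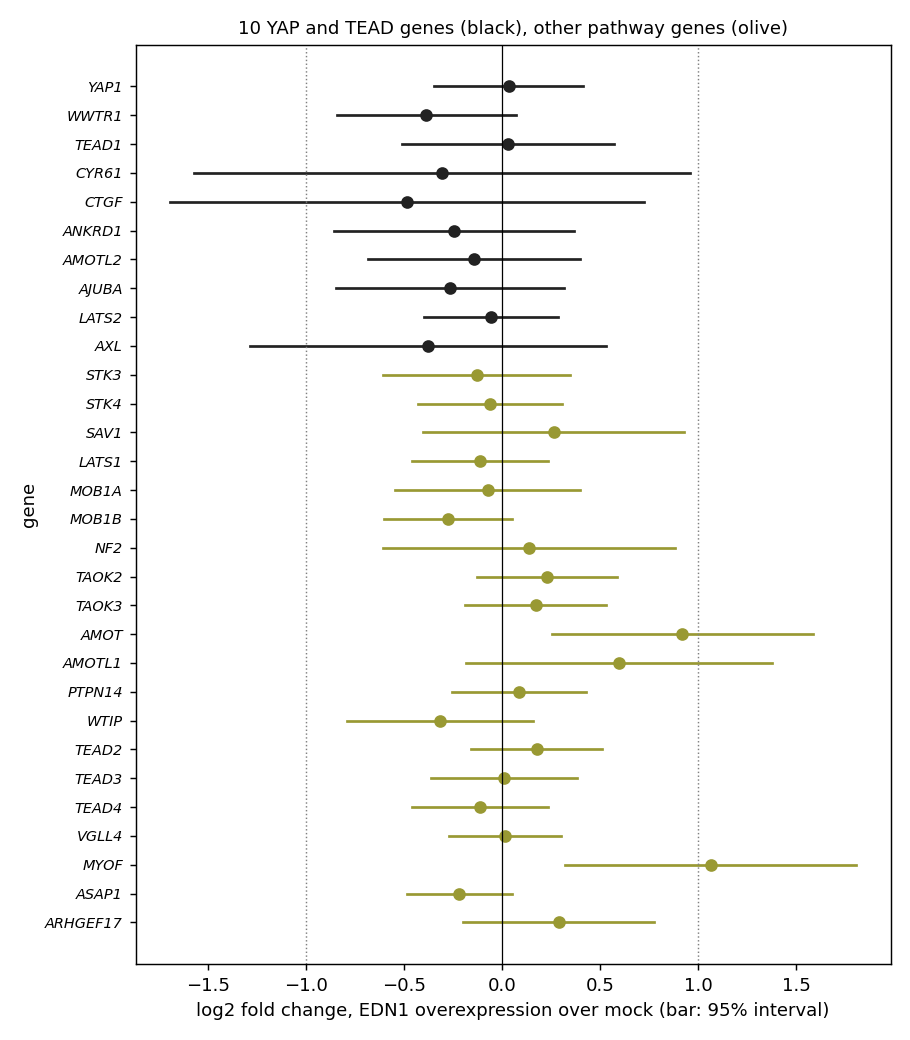
Log2 ratio of EDN1 to mock with its 95% interval (horizontal axis) for the 10 YAP and TEAD genes (black) and 20 other pathway genes (olive), with dotted lines at 2-fold in either direction. All 10 black intervals cross 0, those of CYR61, CTGF and AXL pass the line of a 2-fold fall, and AMOT and MYOF are the olive genes whose intervals lie above 0.

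The target signature, 23 known YAP and TEAD targets of which 19 were tested, holds 7 of the 10 members. Of the 19, 0 passed the test, and the median log2 ratio was -0.14. Fold changes were negative for 15 and positive for 4, while 49.7% were negative over all genes. The 7 members on the list are all among the 15, so this count is not separate from that of the members. The groups did not overlap in 2 of the 19, MYOF and ASAP1, against 2.04% of all genes. MYOF, a membrane repair gene, was at 2.03, 0.865, 1.85 and 1.94 CPM in mock and at 3.66, 2.95, 5.00 and 2.54 CPM in EDN1. All 4 EDN1 libraries were above mock, with a log2 ratio of 1.06 (SE 0.34) and an unadjusted p of 0.00937 (edgeR adjusted p = 0.9999). MYOF rested on low counts, 7 to 28 per library in mock and 22 to 57 in EDN1. ASAP1, a regulator of ARF proteins and the cytoskeleton, was lower in all 4 EDN1 libraries (54.5 to 60.2 CPM) than in mock (63.4 to 69.3 CPM), with a log2 ratio of -0.22 (SE 0.12, edgeR adjusted p = 0.9999). These 2 targets lay in opposite directions. ARHGEF17 was at 0.29 (SE 0.22), which was 0.45 without EDN1 1. The 4 targets that did not pass the filter on low counts were FOXF2, CCDC80, TGFB2 and RBMS3.

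The mean centred log2 CPM over the 10 members was 0.01, 0.25, -0.05 and 0.28 in the mock libraries 1 to 4. In the EDN1 libraries it was -0.36, -0.02, -0.40 and 0.28 in the same order of numbers. EDN1 1 and EDN1 3 lay below the mock range, and EDN1 2 and EDN1 4 lay within it. The members did not weigh alike in this mean. CYR61 was at -0.93, -0.83 and 1.40 in EDN1 1, EDN1 3 and EDN1 4, and CTGF at -1.27, -1.12 and 1.14. In the same libraries AXL was at 0.64, -0.91 and -0.89, and LATS2 at -0.25, 0.06 and 0.07. The mean is therefore not a shift shared by all 10.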

How the data were processed

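The deposited file holds raw read counts per gene in 8 columns, 1 per library, and a gene length (not used). Per the labels' protocols the kit was Lexogen QuantSeq, which reads transcript ends, so levels were not compared between genes. Per the submitters' processing notes, Bowtie2, edgeR and hg19 were used; their versions, the counter and its strand setting are not stated in the labels. In GENCODE 29, exons of YAP1, WWTR1, CTGF and AXL overlap antisense genes on the opposite strand. Exons of AMOTL2 overlap a pseudogene and those of AJUBA another gene, both on the same strand. Whether reads of these genes were counted with the members is not known.

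Rows of 1 symbol were summed (25737 rows, 24462 genes, MARCH1 and MARCH2 kept apart). Genes were filtered with filterByExpr (minimum count 10), scaled by TMM and tested by quasi-likelihood in edgeR 4.0.16 (R 4.3.3) with group as the only term and Benjamini-Hochberg adjustment (threshold 0.05) over 12577 genes. The SE is the log2 ratio over the root of F, and intervals are 95%. CPM uses TMM-scaled library sizes, log2 CPM a prior count of 2. The fit was run on simulated data with known changes, and how often small changes were missed there is not given here. Each pair of libraries differed beyond sampling noise (chi-square per degree of freedom 6.16 to 86.5).

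The members and lists were chosen with earlier results of these data known. Named genes were the 10 members, fixed pathway genes, the 3 non-members of smallest p in each list and the 3 genes most like CYR61 and CTGF. Alternatives were RLE scaling, no filter, DESeq2 1.42.0, limma voom 3.58.1, the replicate block, rows as deposited and leaving out each library. The library set as a term and each set alone were chosen after seeing the data.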

Additional observations from a re-analysis of the deposited data

Results flagged for a closer look

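CYR61 in EDN1 4 (606 CPM) stood far from the other 3 EDN1 libraries, which lay between 120 and 148 CPM. Its gap to the nearest, divided by the range of all 4, was above the 95% critical value of Dixon's test for 4 samples. It was the only such case among 22 groups examined (EDN1 and the 10 members in each group), where chance gives about 5%. CTGF was also highest of its group in EDN1 4, at 424 CPM.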

How the results depend on the processing

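edgeR called 1 gene (EDN1) and DESeq2 3 (EDN1, TMSB4X and LGI1, the last 2 outside the rule for named genes); each other alternative called 1. None of the 10 members, and none of the 20 other named pathway genes, was called under any of the 17 alternatives. Of 170 values of members under alternatives, 15 had the other sign from the value over all libraries. With the replicate block, a fit tried because both groups are numbered 1 to 4, 1 gene was called and 550 had an unadjusted p under 0.05 against 359 without it, CTGF moved from a log2 ratio of -0.49 to -0.65 (unadjusted p 0.0198, edgeR adjusted p = 0.954), CYR61 from -0.31 to -0.48, and TEAD3 turned to -0.0063. The labels do not say that the numbers mark pairs, and the deviations of same-numbered libraries correlated at 0.477, 0.151, -0.149 and 0.528, which does not settle it. Not every library correlated best with its own number. By limma voom TEAD3 was at -0.018. With the library set as a term, the log2 ratio was -0.047 for YAP1, -0.11 for TEAD1, -0.014 for TEAD3 and 0.030 for STK4. In the first library set alone it was -0.034 for YAP1, -0.14 for TEAD1, -0.050 for TEAD3, -0.12 for SAV1 and 0.18 for MOB1A, and in the second alone -0.078 for YAP1, -0.072 for TEAD1, 0.077 for STK4 and -0.015 for VGLL4. Leaving out each library in turn gave ranges of -0.082 to 0.13 for YAP1, -0.21 to 0.17 for TEAD1, -1.23 to 0.041 for CYR61, -0.41 to 0.061 for ANKRD1, -0.26 to 0.075 for AMOTL2 and -0.13 to 0.013 for LATS2. The ranges were -0.13 to 0.099 for TEAD3, -0.035 to 0.045 for VGLL4, -0.15 to 0.050 for STK4, -0.20 to 0.011 for STK3, -0.20 to 0.047 for MOB1A and -0.17 to 0.39 for NF2. By edgeR, 0 members had an unadjusted p under 0.05 over all libraries, against 2.85% of all genes. The count was 1 with the replicate block (4.37% of all genes) and 3 without EDN1 4 (5.76% of the genes then tested). The cause of these turns was not tested.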

Other observations

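Other genes of the target signature also varied between libraries of a group, and those given here were picked after their values were seen. IGFBP3, which encodes a binding protein of insulin-like growth factors, was at 0.702, 10.5, 1.28 and 5.46 CPM in mock 1 to 4 and at 0.732, 3.29, 0.438 and 13.2 CPM in EDN1 1 to 4. Mock 2, mock 4 and EDN1 4 were its 3 highest libraries. Its counts were low in several libraries, from 5 in EDN1 3 to 114 in EDN1 4. CRIM1, a transmembrane protein gene, had the same 3 highest libraries, at 96.8, 155 and 165 CPM, against 56.1 to 90.5 CPM in the other 5. NUAK2, a kinase gene and YAP target, ran another way and had its 2 lowest values in mock 4 (1.66 CPM) and EDN1 4 (0.693 CPM), and its highest in mock 1 (9.21 CPM). F3 also ran another way. It was at 2.22, 2.07 and 1.85 CPM in mock 2, mock 4 and EDN1 4, and highest in EDN1 2 (7.83 CPM).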
